A study of Mus musculus with 6 samples.

Results

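TGF-beta induced target genes are the genes that a cell switches on when transforming growth factor beta (TGF-beta) reaches it, and 8 of them are described here: Pmepa1, Tgfbi, Bambi, Ltbp3, Tsc22d1, Ctgf, Smurf1 and Smurf2. They were taken by symbol from a deposited table of 22381 mouse genes, and each symbol matched 1 line. RNA was sequenced from bone marrow LSK cells, which are negative for mature blood lineage markers, positive for Sca-1 and c-Kit, and include blood stem cells and early progenitors. By the labels, 3 samples came from C57BL/6 mice of genotype Tgif1-/- and 3 from C57BL/6 WT (Tgif1+/+) mice, all aged 8 to 12 weeks. The labels name no Cre driver, no treatment and no pooling of animals, nor do they say that the 3 samples of a group were separate animals, so the error of the test may be technical only. The table gives 1 FPKM value per group (fragments scaled to transcript length and to the mapped total), with no value per sample, so depth and sample spread are unknown.

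TGF-beta is released from a latent complex, binds a pair of serine-threonine kinase receptors, and the receptors phosphorylate Smad2 and Smad3, which enter the nucleus with Smad4. Several of the genes that Smads switch on encode brakes on the same pathway, which makes their RNA a common readout of pathway activity. TGF-beta is known for holding blood stem cells in quiescence, and TGIF1 is a homeodomain protein that represses Smad-driven genes. A comparison of LSK cells with and without Tgif1 therefore asks whether RNA of these target genes differs.

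Tgif1 itself stood at 88.6 FPKM in cells labelled Tgif1-/- and 71.5 FPKM in cells labelled WT. The authors' deposited table marks its test as failed, so that value has no error, and it does not bear out the knockout label. Which part of the gene was removed is not stated in the labels, and a whole-gene value does not show whether a part is missing. All directions below are therefore between groups as labelled, and gene positions follow the deposited table, which names no mouse build.

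None of the 8 target genes was called different between the groups. Cuffdiff tested 6 of them in the authors' deposited table, 0 of them had a q at or under 0.05, and 0 had an unadjusted p under 0.05. Of all 10730 tested genes 71 were called, 0.662%, with 0.289% called higher and 0.373% called lower in cells labelled Tgif1-/-, and 5.41% had an unadjusted p under 0.05. Among 6 genes, 0 calls is near that background. Of the other pair, the test of Tsc22d1 failed and Ctgf had too few reads to test. The tested genes had log2 ratios (Tgif1-/- over WT) between -0.35 and 0.03, and 5 of the 6 were below 0 (all but Ltbp3, and without Bambi once ratios are centred on the median of tested genes), as were 57.4% of 10683 tested genes with a ratio. Their median was -0.10, beside -0.03 over those genes, and the authors' deposited table lists q = 1.00 for each of the 6.

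The levels of the 8 genes spanned a wide range within the same cells. FPKM is scaled to transcript length, so levels of different genes can be set side by side. Tsc22d1 was highest, above 91.4% of genes in the table in cells labelled Tgif1-/- and 92.2% in cells labelled WT. Smurf2 followed, then Ltbp3, Tgfbi and Smurf1 close together, then Pmepa1 and Bambi below 1 FPKM, and Ctgf near 0. The order was the same in both groups except for Bambi and Pmepa1, which changed places. A single level carries no error in the table, so the order of neighbours could not be tested.

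**Figure D1:**
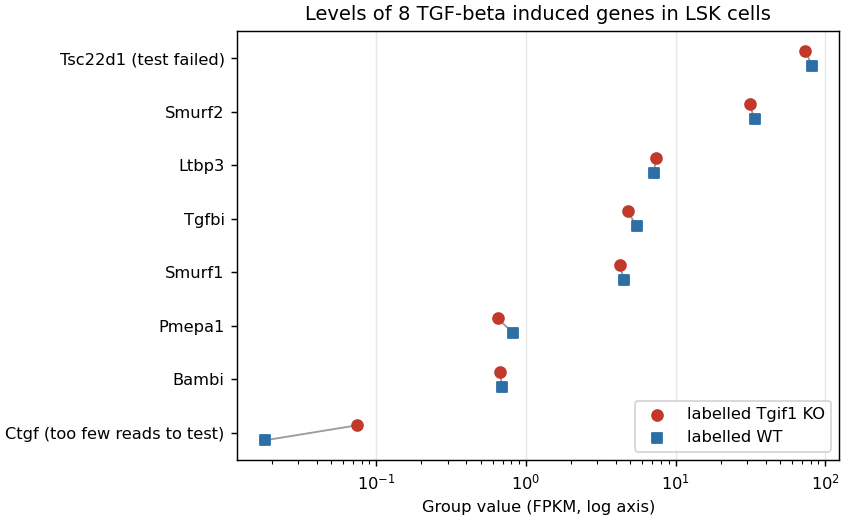
FPKM on a log axis for each of the 8 genes, with circles for cells labelled Tgif1-/- and squares for cells labelled WT, 1 value per group and no error. The values run from Tsc22d1, at 73.8 FPKM in cells labelled Tgif1-/- and 81.6 FPKM in cells labelled WT, down to Ctgf, at 0.0741 FPKM in cells labelled Tgif1-/- and 0.0179 FPKM in cells labelled WT.

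Among the brakes inside the cell, Smurf1 and Smurf2 encode ubiquitin ligases that send Smads and the activated receptor for destruction. Smurf2 (ENSMUSG00000018363, chromosome 11, positions 106681380 to 106782029) stood at 31.3 FPKM in cells labelled Tgif1-/- and 33.8 FPKM in cells labelled WT. Smurf1 (ENSMUSG00000038780, chromosome 5, positions 145637364 to 145726716) stood at 4.23 FPKM in cells labelled Tgif1-/- and 4.51 FPKM in cells labelled WT. Both values were slightly lower in cells labelled Tgif1-/-. The level of Smurf2 was 7.39 times that of Smurf1 in cells labelled Tgif1-/- and 7.48 times in cells labelled WT. The log2 ratio was -0.11 for Smurf2, with a standard error of 0.17 implied by the test statistic, and p = 0.514 in the authors' deposited table. It was -0.09 for Smurf1, with an implied standard error of 0.15 and p = 0.533 in the authors' deposited table. These had the smallest implied errors of the set: the 95% interval of the fold (Tgif1-/- over WT) ran from 0.734 to 1.17 for Smurf2 and from 0.764 to 1.15 for Smurf1. A call would have needed a fold of about 1.53 either way for Smurf2 and 1.46 for Smurf1. The implied error of Smurf1 was small for its level, since only 3.70% of 595 tested genes within a factor of 1.2 of its level had a smaller one, and the median there was 0.33. With each error raised to at least the median of genes at like expression, the error of Smurf1 became 0.33 and its interval ran from 0.599 to 1.47.

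At the membrane, Bambi encodes a receptor look-alike without a kinase domain that blocks signalling, and Pmepa1 a membrane adaptor that keeps Smad2 and Smad3 from the receptor. Bambi (ENSMUSG00000024232, chromosome 18, positions 3507955 to 3516402) stood at 0.675 FPKM in cells labelled Tgif1-/- and 0.688 FPKM in cells labelled WT. Pmepa1 (ENSMUSG00000038400, chromosome 2, positions 173049959 to 173102034) stood at 0.647 FPKM in cells labelled Tgif1-/- and 0.824 FPKM in cells labelled WT. Both inhibitors were thus at low levels in both groups. The log2 ratio of Bambi was -0.03 with an implied standard error of 0.46 (p = 0.950 in the authors' deposited table). That of Pmepa1 was -0.35, the lowest of the tested genes, with an implied standard error of 0.56 (p = 0.533 in the authors' deposited table). At such levels the comparison is coarse: the interval of the fold ran from 0.522 to 1.84 for Bambi and from 0.366 to 1.68 for Pmepa1, and a call would have needed folds of 3.18 and 4.06. RefSeq lists a Bambi pseudogene in the mouse genome, so reads shared with it leave the value of Bambi uncertain.

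Of the secreted products, Ltbp3 encodes a protein that binds the latent TGF-beta complex and tethers it to the matrix, and Tgfbi an adhesive matrix protein that binds integrins. Ltbp3 (ENSMUSG00000024940, chromosome 19, positions 5740904 to 5771401) stood at 7.35 FPKM in cells labelled Tgif1-/- and 7.21 FPKM in cells labelled WT. Tgfbi (ENSMUSG00000035493, chromosome 13, positions 56710920 to 56740923) stood at 4.79 FPKM in cells labelled Tgif1-/- and 5.50 FPKM in cells labelled WT. Ltbp3 was the 1 tested gene of the set with the higher value in cells labelled Tgif1-/-, and Tgfbi had the smallest p. The log2 ratio of Ltbp3 was 0.03 with an implied standard error of 0.23 (p = 0.903 in the authors' deposited table), and its fold interval ran from 0.749 to 1.39. The log2 ratio of Tgfbi was -0.20 with an implied standard error of 0.26 (p = 0.435 in the authors' deposited table), and its fold interval ran from 0.614 to 1.23. Of all tested genes, 32.2% had a smaller p than Tgfbi. Reads of overlapping genes may leave the value of Ltbp3 uncertain. None of the other 7 genes shares its listed block with another gene of the table.

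Ctgf, the third secreted product, encodes a matricellular protein strongly induced by TGF-beta in fibroblasts. Ctgf (ENSMUSG00000019997, chromosome 10, positions 24315248 to 24318489) stood at 0.0741 FPKM in cells labelled Tgif1-/- and 0.0179 FPKM in cells labelled WT. Its value in cells labelled Tgif1-/- was 4.13 times that in cells labelled WT, a log2 ratio of 2.05. That ratio was the largest of the set, but it lies between levels near 0. With 0.1 FPKM added to both values the log2 ratio was 0.56, and with 1 FPKM added it was 0.08. The authors' deposited table marks Ctgf as having too few reads and prints p = 0.221 beside it.

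Tsc22d1 encodes a leucine zipper protein first found as a transcript stimulated by TGF-beta. Tsc22d1 (ENSMUSG00000022010, chromosome 14, positions 76814768 to 76907569) stood at 73.8 FPKM in cells labelled Tgif1-/- and 81.6 FPKM in cells labelled WT. The log2 ratio was -0.14, and the authors' deposited table marks the test as failed, so the best expressed gene of the set has no error or p-value. The median implied error of 397 tested genes within a factor of 1.2 of its level was 0.19.

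**Figure D2:**
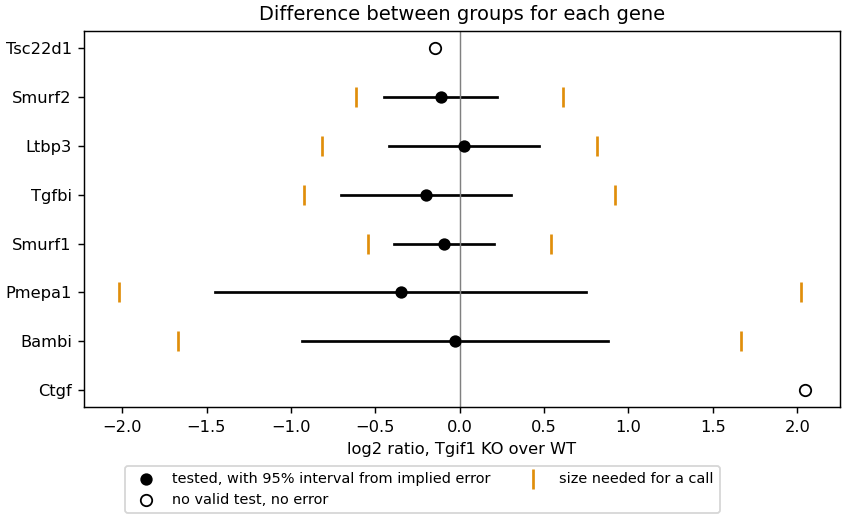
The log2 ratio (Tgif1-/- over WT) of each gene, with the 95% interval from the implied standard error for the 6 tested genes, open circles for the 2 genes without a valid test, and orange ticks at the size a call would have needed. Each of the 6 intervals spans 0, and each point lies well inside its ticks.

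How far a difference could have gone unseen varied with the gene. The intervals of all 6 tested genes spanned 0, those of 5 lay within a 2-fold change either way (all but Pmepa1), and those of 3 lay within 1.5-fold (Smurf1, Smurf2 and Ltbp3). With errors raised in that way, 4 lay within 2-fold (Bambi no longer did) and 2 within 1.5-fold (Smurf1 no longer did). These intervals use the error that the authors' model gave and hold no spread measured here between samples. Since the cells were sequenced in bulk, fewer cells of a type and less RNA per cell cannot be told apart.

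**Figure D3:**
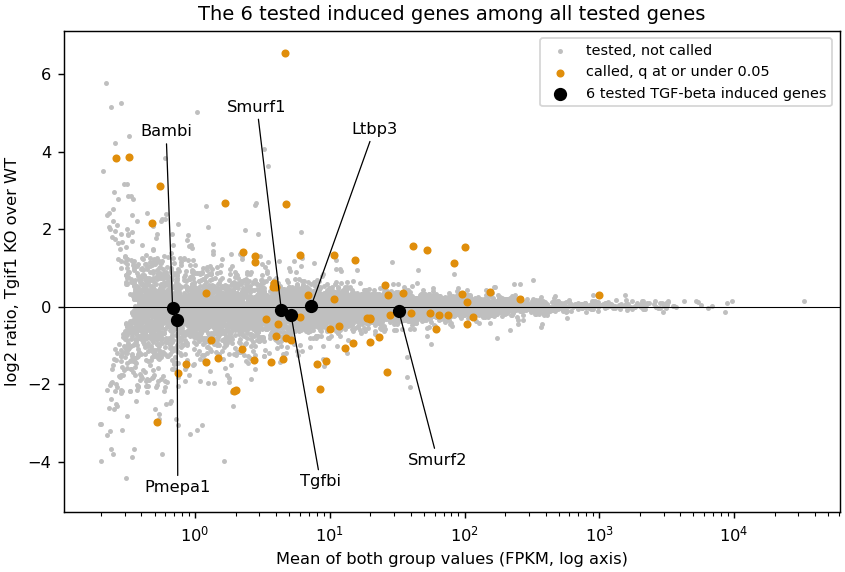
The log2 ratio (Tgif1-/- over WT) of tested genes against the mean of both group values in FPKM on a log axis, with called genes in orange and the 6 tested TGF-beta induced genes in black. The 6 lie between -0.35 and 0.03, inside the grey cloud of genes that were not called.

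Promoter sequence was available from RefSeq (build GRCm38.p6) for 5 of the 8 genes: Ltbp3, Smurf1, Smurf2, Tgfbi and Tsc22d1, the last with 5 start sites, giving 9 windows of 250 bases before to 50 after the start. The windows of Tgfbi, the tested gene with the smallest p, and of Smurf2, the tested gene with the highest level, are printed 5′ to 3′ so that the letters Smads and TGIF1 are known to bind can be looked for. Capitals mark the short Smad element CAGAC on either strand (GTCTG on the printed one). The Tgfbi window is chr13:56609336-56609635 on the plus strand and the Smurf2 window chr11:106920666-106920965 on the minus strand.
Tgfbi: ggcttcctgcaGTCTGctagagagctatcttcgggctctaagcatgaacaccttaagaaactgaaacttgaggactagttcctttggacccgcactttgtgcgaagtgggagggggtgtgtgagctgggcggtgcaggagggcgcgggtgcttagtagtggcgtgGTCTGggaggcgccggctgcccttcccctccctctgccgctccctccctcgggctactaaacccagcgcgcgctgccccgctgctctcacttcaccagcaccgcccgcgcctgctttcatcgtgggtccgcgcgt
Smurf2: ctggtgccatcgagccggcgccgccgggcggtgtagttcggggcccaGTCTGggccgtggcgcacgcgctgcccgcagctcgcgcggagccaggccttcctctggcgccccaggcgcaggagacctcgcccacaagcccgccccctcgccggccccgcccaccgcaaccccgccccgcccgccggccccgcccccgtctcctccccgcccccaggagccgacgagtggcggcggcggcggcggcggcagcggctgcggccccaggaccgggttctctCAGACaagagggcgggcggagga
Both windows hold 2 such elements. In Tgfbi they begin 239 and 85 bases before the start, and in Smurf2 they begin 203 bases before it and at base 28 after it. CAGAC occurred in 8 of the 9 windows, and in 49.6% of 32851 promoter windows of all genes. The GC-rich Smad element GGCGC, common in GC-rich sequence, occurred in 7 of the 9 windows and in 36.9% of all. The full palindrome GTCTAGAC occurred in 0 of the 9 and 0.213% of all, and the TGIF element CTGTCA in 0 of the 9 and 19.2% of all. None of these motifs contains another, both strands were searched, and 2 of the 5 Tsc22d1 windows overlap at their ends. A match describes letters only, and no binding was measured.

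Relatives of the same protein families give the levels beside which those of the 8 genes can be read. Of the ubiquitin ligases related to the Smurfs, Nedd4 stood at 182 FPKM in cells labelled Tgif1-/- and 196 FPKM in cells labelled WT. Its level was 5.83 times that of Smurf2 in cells labelled Tgif1-/- and 5.81 times in cells labelled WT. Wwp2 stood at 16.4 FPKM in cells labelled Tgif1-/- and 16.6 FPKM in cells labelled WT. Of 7 such relatives 2 were tested, both lower in value in cells labelled Tgif1-/-. Of these 0 were called, beside 0.662% of all tested genes. The tests of 3 failed, and Hecw1 was listed at 0 in both groups. The log2 ratios of Nedd4 and Wwp2 were -0.11 and -0.02, with a median of -0.06.

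Ltbp1, another latent complex protein, was the better expressed relative of Ltbp3, at 18.8 FPKM in cells labelled Tgif1-/- and 20.6 FPKM in cells labelled WT. Ltbp4 stood at 0.740 FPKM in cells labelled Tgif1-/- and 1.69 FPKM in cells labelled WT (log2 ratio -1.19, implied standard error 0.72, p = 0.0962 in the authors' deposited table). Of the relatives of Tsc22d1, Tsc22d2 stood at 24.5 FPKM in cells labelled Tgif1-/- and 25.0 FPKM in cells labelled WT, a log2 ratio of -0.03, and the tests of the other 2 failed. The relative of Pmepa1 known as Ldlrad4, listed as D18Ertd653e and matched by its identifier, stood at 9.64 FPKM in cells labelled Tgif1-/- and 10.03 FPKM in cells labelled WT. That level lay far above the level of Pmepa1, and its log2 ratio was -0.06. Postn, the relative of Tgfbi, stood at 0.807 FPKM in cells labelled Tgif1-/- and 1.43 FPKM in cells labelled WT, a log2 ratio of -0.83 with p = 0.109 in the authors' deposited table. The median log2 ratio over Ldlrad4 and Postn was -0.44. Of 5 relatives of Ctgf in the table only Wisp3 was tested, at 0.857 FPKM in cells labelled Tgif1-/- and 1.10 FPKM in cells labelled WT (log2 ratio -0.37), and Cyr61 was listed at 0 in both groups.

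**Figure D4:**
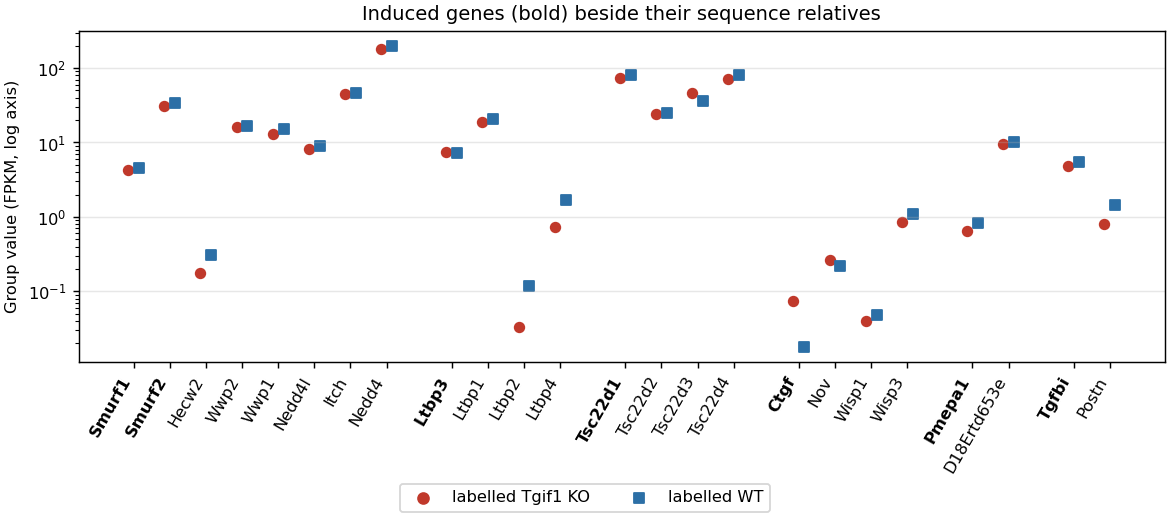
FPKM on a log axis for 7 of the 8 genes, in bold, beside relatives of the same protein families, with circles for cells labelled Tgif1-/- and squares for cells labelled WT. In cells labelled Tgif1-/- and cells labelled WT, Hecw2 at 0.176 and 0.308 FPKM is the lowest of the Smurf family shown, Smurf1 at 4.23 and 4.51 FPKM the next, and Nedd4 at 182 and 196 FPKM the highest. Relatives listed at 0 in a group are left out.

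Of 30 other TGF-beta induced genes 21 were tested and 1 of these was called, beside 0.662% of all tested genes. The test of 1 failed, and 8 had too few reads. Of the 21 tested, 10 had the higher value and 11 the lower value in cells labelled Tgif1-/-, and their median log2 ratio was -0.06. The called gene was Hmga2, a chromatin protein of fetal and stem cells, which fell to 10.2 FPKM in cells labelled Tgif1-/-, against 19.4 FPKM in cells labelled WT (log2 ratio -0.93, implied standard error 0.16, q = 7.68e-06 in the authors' deposited table). At an unadjusted p under 0.05 there were 3 of the 21, beside 5.41% of all tested genes. All 3 had the lower value in cells labelled Tgif1-/-: Hmga2, Fn1 and Cdkn1a, the last pair named after their values were seen. Fn1, which encodes fibronectin, stood at 0.467 FPKM in cells labelled Tgif1-/- and 1.07 FPKM in cells labelled WT (log2 ratio -1.20, p = 0.00079 and q = 0.0912 in the authors' deposited table), so it joins the calls at a q threshold of 0.1. Cdkn1a, the cell cycle inhibitor p21, stood at 34.3 FPKM in cells labelled Tgif1-/- and 47.3 FPKM in cells labelled WT (log2 ratio -0.46, p = 0.0272 and q = 0.689 in the authors' deposited table). Smad7, the inhibitory Smad, stood at 7.79 FPKM in cells labelled Tgif1-/- and 8.68 FPKM in cells labelled WT. Skil, a Smad corepressor, stood at 9.01 FPKM in cells labelled Tgif1-/- and 8.21 FPKM in cells labelled WT.

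Of 4 tested genes known to be lowered by TGF-beta, all 4 had the lower value in cells labelled Tgif1-/-. Their median log2 ratio was -0.14, and 0 were called. Over all tested genes 57.4% of those with a ratio had the lower value, and 0.662% were called. Id1 and Id3 among the 4 lay below 1 FPKM in both groups. The implied standard errors of Id1, Id2 and Id3 were 0.81, 0.38 and 1.68. Each was larger than the size of that gene's log2 ratio. The test of Myc, the other gene of that list, failed. Its value was the higher in cells labelled Tgif1-/-, at 322 FPKM against 310 FPKM in cells labelled WT. The smallest p belonged to Cdc25a, a cell cycle phosphatase (unadjusted p = 0.0041, q = 0.28 in the authors' deposited table). Cdc25a stood at 15.1 FPKM in cells labelled Tgif1-/- and 16.8 FPKM in cells labelled WT. Its p rests on an implied standard error of only 0.05 for a log2 ratio of -0.16. The level of Cdc25a lies between those of Ltbp3 and Smurf2. Tested genes within a factor of 1.2 of their levels had median errors of 0.29 and 0.20. Id2, an inhibitor of helix-loop-helix factors, stood at 6.05 FPKM in cells labelled Tgif1-/- and 6.59 FPKM in cells labelled WT. The tested induced and repressed genes had medians on the same side of 0, as did all tested genes (-0.03).

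Upstream of the targets, 0 tested genes were called by Cuffdiff and 0 had an unadjusted p under 0.05. Over all tested genes these shares were 0.662% and 5.41%. Tests failed for 1 gene of ligand supply, 2 receptors and 5 Smads and nuclear repressors, Tgfbr2 and Smad2 among them. Those genes have no valid p-value. Tgfb1, Smad7, Ski and Skil are also counted among the other induced genes. Of 6 tested genes of ligand supply 4 had the lower value in cells labelled Tgif1-/-, with a median log2 ratio of -0.07. Itgb6, an integrin subunit that frees TGF-beta from its latent complex, stood at 0.429 FPKM in cells labelled Tgif1-/- and 0.352 FPKM in cells labelled WT. Tgfb1, the ligand itself, stood at 84.6 FPKM in cells labelled Tgif1-/- and 88.4 FPKM in cells labelled WT.

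Of 6 tested receptors 4 had the lower value in cells labelled Tgif1-/-, with a median log2 ratio of -0.10. Acvr1, a type I receptor for BMP and activin ligands, had the smallest p, at 3.28 FPKM in cells labelled Tgif1-/- and 3.96 FPKM in cells labelled WT (p = 0.144 in the authors' deposited table). Acvrl1, a related type I receptor of endothelium, stood at 0.397 FPKM in cells labelled Tgif1-/- and 1.09 FPKM in cells labelled WT. Of 10 tested Smads and nuclear repressors 7 had the lower value, with a median of -0.06. Smad3, a Smad that binds CAGAC, stood at 63.5 FPKM in cells labelled Tgif1-/- and 68.8 FPKM in cells labelled WT. Zfyve9, which presents Smads to the receptor, stood at 0.357 FPKM in cells labelled Tgif1-/- and 0.627 FPKM in cells labelled WT (p = 0.0568 in the authors' deposited table). Ski, a Smad corepressor, stood at 15.5 FPKM in cells labelled Tgif1-/- and 17.2 FPKM in cells labelled WT. RNA of the ligand and of Smad3 was thus well above 1 FPKM in both groups. Levels of the 8 genes ran from Ctgf near 0 to Tsc22d1 at 73.8 FPKM in cells labelled Tgif1-/- and 81.6 FPKM in cells labelled WT. Cyr61 was at 0.

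**Figure D5:**
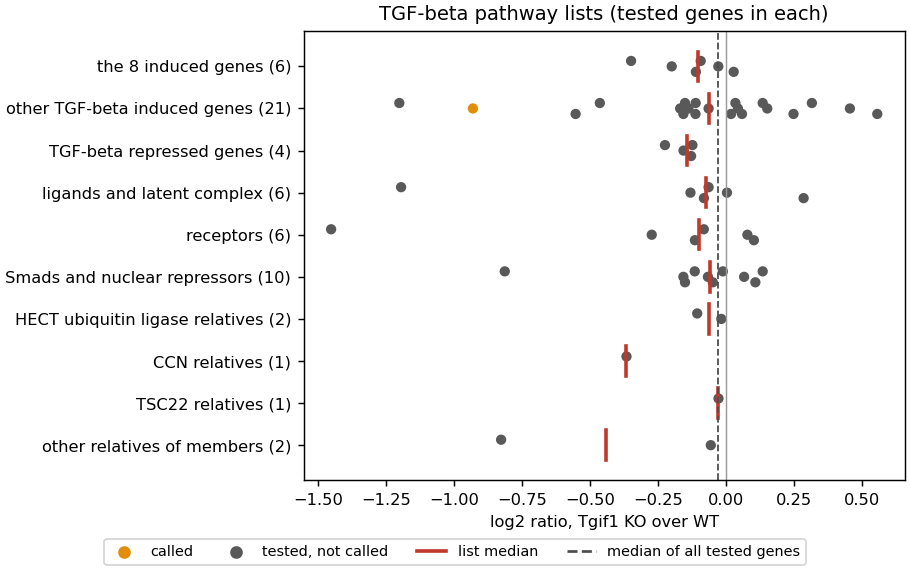
Log2 ratios (Tgif1-/- over WT) of the tested genes of each TGF-beta list, with called genes in orange, list medians as red bars and the median of all tested genes, -0.03, as a dashed line. Hmga2 at -0.93 is the only called gene, and the median of the 8 genes' list lies at -0.10.

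Markers of LSK cells were present, and some markers of other cell types were called. All 8 LSK markers were above 1 FPKM in both groups, with Kit at 193 FPKM in cells labelled Tgif1-/- and 202 FPKM in cells labelled WT, and Ly6a, which encodes Sca-1, at 120 FPKM in cells labelled Tgif1-/- and 88.9 FPKM in cells labelled WT. Of 8 markers of the lineage gate, 3 were at 1 FPKM or more in cells labelled Tgif1-/- and 4 in cells labelled WT, with sums of 42.0 and 43.2 FPKM. The 11 monocyte and macrophage markers, of cells that also express Tgfbi, summed to 386 FPKM in each group, with 7 at 1 FPKM or more in each. The 12 stromal and endothelial markers are of cells that express Ctgf, Ltbp3 and Tgfbi. They summed to 12.1 FPKM in cells labelled Tgif1-/- and 17.0 FPKM in cells labelled WT. In each group 3 were at 1 FPKM or more, and Dcn and Lum were at 0 in both. Of the 4 tested, 0 were called, and 3 had the higher and 1 the lower value in cells labelled Tgif1-/-. The lower was Bgn, at 5.93 FPKM in cells labelled Tgif1-/- and 11.9 FPKM in cells labelled WT. Its log2 ratio was -1.01 (p = 0.000893 and q = 0.0987 in the authors' deposited table). It thus joins the calls at a q threshold of 0.1. The 9 megakaryocyte markers summed to 318 FPKM in cells labelled Tgif1-/- and 256 FPKM in cells labelled WT, with 0 called by Cuffdiff and 3 at an unadjusted p under 0.05. The 8 B cell markers summed to 58.2 FPKM in cells labelled Tgif1-/- and 120 FPKM in cells labelled WT, with 4 called lower. The 8 mast cell and basophil markers summed to 456 FPKM in cells labelled Tgif1-/- and 211 FPKM in cells labelled WT. Of these 4 were called higher. Tested were 7 megakaryocyte, 8 B cell and 7 mast cell and basophil markers. Of all tested genes 0.662% were called and 5.41% had an unadjusted p under 0.05. The part of these marker differences in the values of the 8 genes was not tested.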

How the data were processed

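LSK cell RNA of 3 Tgif1-/- and 3 WT samples was sequenced. The submitters' processing notes name TopHat (alignment) and Cuffdiff (group comparison) without versions. Per the file headers, the deposited table holds the authors' FPKM value for each group, a log2 fold change with WT on top (turned round here), a test statistic, a p-value and a q-value. The notes name hg19, a human build, yet all 22381 identifiers are mouse, and only 173 of 20781 found in GENCODE M21 have the same position, so the positions belong to a mouse build that the sources used here do not name, and starts count from 1. Strand of the counting is not stated, so antisense reads cannot be told apart.

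Adjusting the deposited p-values by Benjamini-Hochberg over 10730 tested genes gave the deposited q-values, and the normal two-sided value of the statistic gave the p-values (10683 genes, both within 0.001). The log2 ratio over the statistic was therefore used as the implied standard error. A gene was called where tested with q at or under 0.05. The size needed for a call is the implied error times the statistic of the largest called p (0.000318). The calculation was run on ratios simulated with these same implied errors. That run cannot show whether the errors themselves are right, since it takes them as given. Named were all 8 genes, Tgif1 and, for each other list, the called genes or else the 2 with the smallest p. Named outside that rule, with their values known, were Smad3, Tgfb1, Smad7, Skil, Ltbp1, D18Ertd653e, Hecw2, Fn1, Cdkn1a and Kit. So were Myc, Id1, Id3, Tgfbr2, Smad2 and genes at 0. Some genes are not reported here. Genes and lists were chosen with earlier results of these data known. Calculations used Python 3.11.15, pandas 2.3.3, numpy 2.4.6, scipy 1.17.1 and matplotlib 3.10.9. Alternatives were other q thresholds, minimum levels, an error floor, centring and pseudocounts.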

Additional observations from a re-analysis of the deposited data

How the results depend on the processing

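No call of the 8 genes appeared under any of 6 alternatives. They were q thresholds of 0.01 and 0.1, and adjustment over genes with at least 1 or 5 FPKM in a group. The others were an error of at least the median in 20 expression bins, and centring. Apart from centring, none of these could have given a call. The smallest p of the tested genes among the 8 was 0.435, an adjusted q is never below its p, and the floor only raises errors. Tsc22d1 and Ctgf, without a valid test, could not be called under any. The count of called genes in the whole table was 71, and it was 39 at a q of 0.01, 46 over genes with at least 5 FPKM, and 22 with the error floor. Centring on the median of tested genes left 36 called higher and 32 lower, beside 31 and 40 without it. It also turned the log2 ratio of Bambi to 0.0029, which is within its error of 0. The median of the tested members ran between -0.07 and -0.11 over its alternatives, one of them, including the failed test, chosen after seeing the data. The log2 ratio of Ctgf moved to 0.56 and 0.08 with pseudocounts of 0.1 and 1. Over the 100 bases nearest the start, CAGAC was in 5 of 9 promoter windows, against 21.3% of all. Leaving out a replicate was not run, because the table used here gives 1 value per group. No paired analysis was possible because the columns carry no replicate. With the error floor the implied error of Smurf1 was 2.19 times larger, and its interval left the 1.5-fold range. The calls of the other induced genes were 2 at a q of 0.1, Hmga2 and Fn1, against 1. Low levels limit Bambi, Pmepa1 and Ctgf most.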
